A study of Bos taurus with 14 samples.

Results

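Cytosolic ribosomal protein genes were followed in *M. longissimus dorsi* (LD) muscle of Charolais × Limousin crossbred heifers, 7 of them outdoor/pasture-fed and 7 indoor/concentrate-fed. The outdoor/pasture-fed heifers grazed outdoors for a year before slaughter, while the indoor/concentrate-fed heifers stayed in pens on a diet of concentrate with barley straw. The labels give no age, and in the study the heifers were kept in several grazing groups and several pens, to which the arrays used here are not linked, so animals were treated as independent. Muscle was taken soon after slaughter and its RNA was amplified and hybridised to the bovine genome array of Affymetrix, with 1 array for each heifer. On such an array several short probes together form the probe set of a transcript, whose level is given on the log2 scale. A gene was taken as a member where a probe set has 1 gene symbol that names a protein of the large subunit (RPL, RPLP) or of the small subunit (RPS, RPSA) of the cytosolic ribosome. Ribosomal S6 kinases and *RPS19BP1*, *RPL7L1* and *RPL22L1* were left out. This gave 67 genes, 42 of the large and 25 of the small subunit, among 9155 named genes. They are read by 94 of 24016 bovine probe sets, and each gene is represented by its probe set with the highest mean.

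Ribosomal proteins assemble with ribosomal RNA into the subunits that translate messenger RNA, and the ribosome needs them in fixed proportions. Their messenger RNAs start with a terminal oligopyrimidine (TOP) tract, through which the kinase mTORC1 and the RNA-binding protein LARP1 control their translation and stability together, so that protein output can change without a change in transcript level. In striated muscle part of the ribosomes carry RPL3L in place of its paralogue RPL3. In bulk muscle, fewer cells of a type and less RNA per cell cannot be told apart.

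The transcripts lay near the top of the array's range. The median level of the 67 genes was 13.1, against 6.80 over all probe sets, and 55 of them had a mean above 12, while the highest single value in the table was 14.4. The highest means belonged to *RPL10* (13.8), *RPS3A* (13.8), *RPL13A* (13.7), *RPL37A* (13.7) and *RPL17* (13.7). The lowest belonged to *RPL37* (6.60), *RPS19* (7.27), *RPL26L1* (9.88), *RPL3* (10.8) and *RPL13* (11.3). Probes differ in how strongly they bind their target, so these levels place probe sets in the range of the array and do not rank the genes by abundance. The muscle label was borne out by its markers, as all 9 measured skeletal muscle markers had a mean above 12, among them *ACTA1* at 14.1 and *CKM* at 13.8. These markers do not tell LD from other skeletal muscles. The defining red blood cell genes *HBA* and *HBB* lay at 5.37 and 5.52.

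For 29 of the 67 genes the deposited value was practically the same on every array, with an SD of at most 0.00018 over 14 arrays. The other 38 (56.7%) had an SD above 0.01, the smallest being 0.021, and are called the varying members. Over all probe sets 40.1% varied, and among the 690 with a mean above 12 the share was 70.9%. The flat genes had a median level of 13.3 and the varying ones of 12.7. The flat genes of the large subunit include *RPL7*, *RPL9*, *RPL13A*, *RPL19*, *RPL26*, *RPL27A* and *RPL32*, and those of the small subunit include *RPS3A*, *RPS7*, *RPS12*, *RPS14*, *RPS19* and *RPS24*. Both subunits had nearly the same share of varying genes, 24 of 42 in the large and 14 of 25 in the small. A value fixed on every array carries no information on a difference between the groups, and the results below therefore rest on the varying members. Of the flat genes, 7 have a second probe set that varied.

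Whether the production systems differed in these transcripts was tested with limma over all 24016 probe sets, with the indoor/concentrate-fed mean subtracted from the outdoor/pasture-fed one. This sign is the opposite of that used in the study's own table of genes. No ribosomal protein gene passed an adjusted p of 0.05, in either direction. The background is low, since 0.0167% of all probe sets passed, and 0.343% where the varying probe sets were adjusted among themselves. At an unadjusted limma p under 0.05 the count was 0 of 38 varying members, against 19.9% of all varying probe sets and 27.2% of those with a mean above 12. Among the flat genes 1 fell under that limit, *RPS19*, with a difference of 1.5e-05 on the log2 scale.

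The differences of the 38 varying genes were small and lay on both sides of 0. At pasture 14 were higher and 24 lower, which compares with 47.5% higher and 52.5% lower over all varying probe sets, and none of these differences passed the test. Their median difference was -0.0059, against -0.0077 over all varying probe sets. The median size of the difference was 0.024, against 0.099 over all varying probe sets and 0.065 among those with a mean above 12. The median SD over the 14 arrays was 0.066 among the members, 0.177 over all varying probe sets and 0.099 among those with a mean above 12. Taken relative to its standard error (SE) the difference had a median size of 0.71 among the members, of 1.16 over all varying probe sets and of 1.27 among those with a mean above 12. The 95% interval of the difference stayed within 0.25 of 0 for 32 of the 38 genes and within 0.1 for 16. The groups overlapped for every one of the 38 genes, whereas they did not overlap for 0.811% of all varying probe sets. The split by direction was sensitive to a few arrays: without indoor/concentrate-fed replicate 5 only 8 genes were higher at pasture, and with the signal of the poly-A spikes, control transcripts added to the RNA, as a covariate 23 were.

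**Figure D1:**
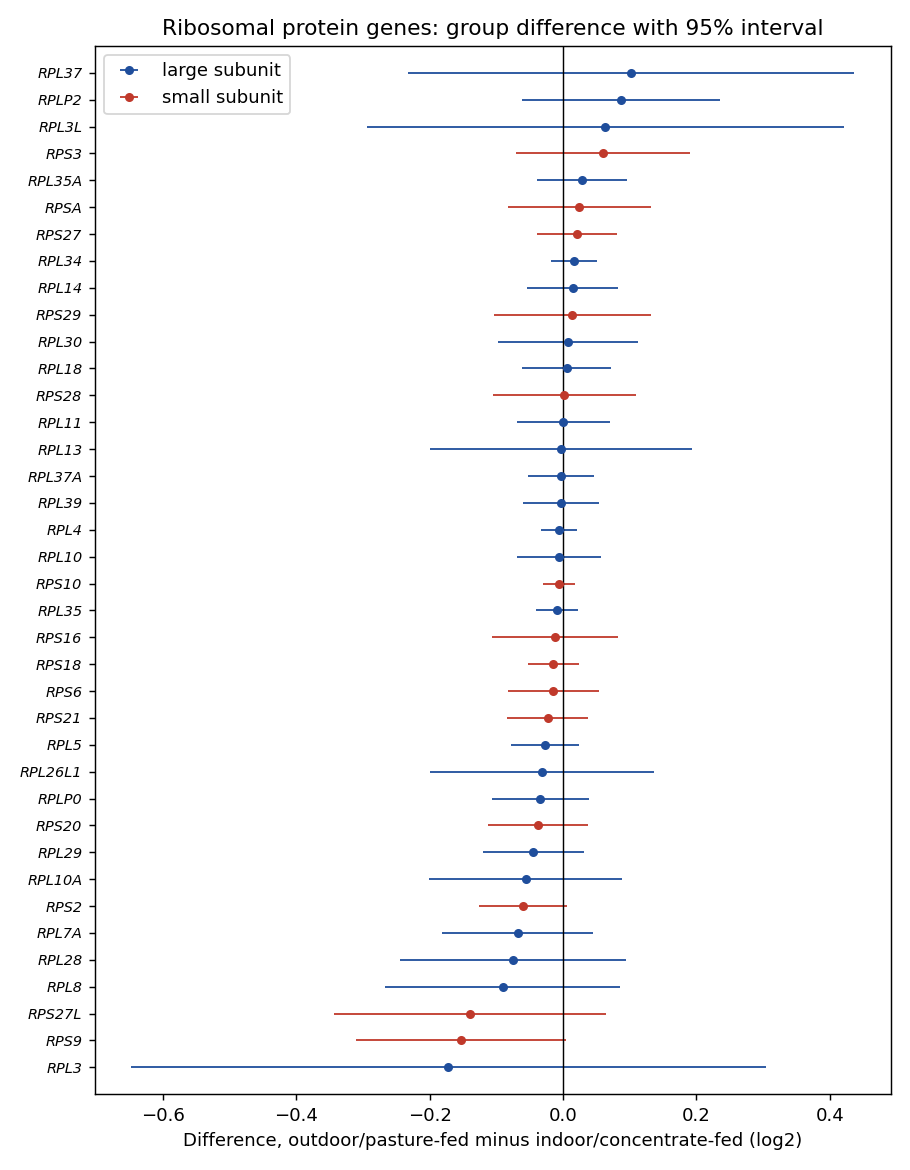
Difference between the group means of the 38 varying ribosomal protein genes (log2, pasture minus concentrate, 7 animals a group) with its 95% interval from limma, in blue for the large and red for the small subunit. Every interval includes 0, and the differences run from -0.17 for *RPL3* to 0.10 for *RPL37*.

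Among proteins of the small subunit, *RPS9*, which lies at the messenger RNA entry side, had the smallest p. Its level was 11.4 to 11.8 (median 11.7) at pasture and 11.6 to 12.04 (median 11.7) indoors, so the medians were close and the indoor group reached higher. The difference was -0.15 ± 0.072 (SE, n = 7 and 7; limma adjusted p = 0.455; exact permutation p = 0.059). *RPS2*, a core protein of the same subunit, ranged from 13.03 to 13.14 at pasture and from 13.08 to 13.27 indoors, a difference of -0.060 ± 0.030 (limma adjusted p = 0.485). *RPS3* differed by 0.060 and *RPS27* by 0.021. *RPS6*, the protein that S6 kinase phosphorylates downstream of mTORC1, ranged from 13.5 to 13.6 in both groups. Its difference of -0.015 changed sign under alternative settings. *RPSA*, also known as the laminin receptor precursor, had a difference of 0.024 with a 95% interval from -0.083 to 0.13.

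Among proteins of the large subunit, *RPL8* differed by -0.090, *RPL7A* by -0.068, *RPL29* by -0.045, *RPL34* by 0.016 and *RPL35A* by 0.028, and none of them passed the test. The stalk proteins recruit the elongation factors to the ribosome. *RPLP2* had the smallest p of the genes higher at pasture, at 12.2 to 12.5 (median 12.4) at pasture and 12.1 to 12.5 (median 12.3) indoors, a difference of 0.087 ± 0.069 (SE, n = 7 and 7; limma adjusted p = 0.689). *RPLP0*, whose transcript the study also used as a reference gene in its QPCR assays, ranged from 12.5 to 12.7 at pasture and from 12.5 to 12.7 indoors. Its difference was -0.034 with a 95% interval from -0.11 to 0.039. *RPL5* and *RPL11* form a particle with 5S ribosomal RNA that binds the p53 regulator MDM2 when it is not built into ribosomes. They differed by -0.027 and 0.00066, with 95% intervals from -0.077 to 0.024 and from -0.069 to 0.071.

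The largest spread among animals was found in *RPL3* (SD 0.41 over 14 arrays), *RPL3L* (SD 0.30), *RPL37* (SD 0.28), *RPS27L* (SD 0.19) and *RPL13* (SD 0.16), against a median of 0.066 over the varying members. Both *RPL3* and *RPL3L*, the alternative proteins of the same position near the peptidyl transferase centre, stood at the top of this order. The smallest spread among varying members was that of *RPS10* (SD 0.021), *RPL4* (SD 0.023) and *RPL35* (SD 0.027).

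*RPL3* ranged from 10.47 to 11.03 (median 10.7) at pasture and from 10.2 to 11.6 (median 10.9) indoors. The indoor animals spanned the wider range, with both the lowest and the highest value, and the difference of -0.17 ± 0.22 (SE, n = 7 and 7; limma adjusted p = 0.831) was smaller than its SE. *RPL3L* ranged from 11.1 to 12.1 (median 11.8) at pasture and from 11.4 to 12.1 (median 11.7) indoors, a difference of 0.063 ± 0.16 (limma adjusted p = 0.928). After removal of the group means the paralogues had a Pearson correlation of -0.17 over the 14 arrays, and of -0.37 with the signal of the poly-A spikes removed as well. *RPS27*, a zinc finger protein of the small subunit, and its p53-inducible paralogue *RPS27L* had a correlation of -0.62, and of -0.64 with the spike signal removed. *RPS27L* ranged from 11.5 to 12.1 (median 11.9) at pasture and from 11.7 to 12.2 (median 12.1) indoors, a difference of -0.14 ± 0.094 (limma adjusted p = 0.625). The lowest *RPS27L* values, 11.48 in outdoor/pasture-fed replicate 1 and 11.72 in indoor/concentrate-fed replicate 2, came from the animals with the highest *RPS27* of their group, at 13.43 and 13.39. For *RPL26*, its paralogue *RPL26L1* varied (difference -0.031) while *RPL26* itself was flat.

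**Figure D2:**
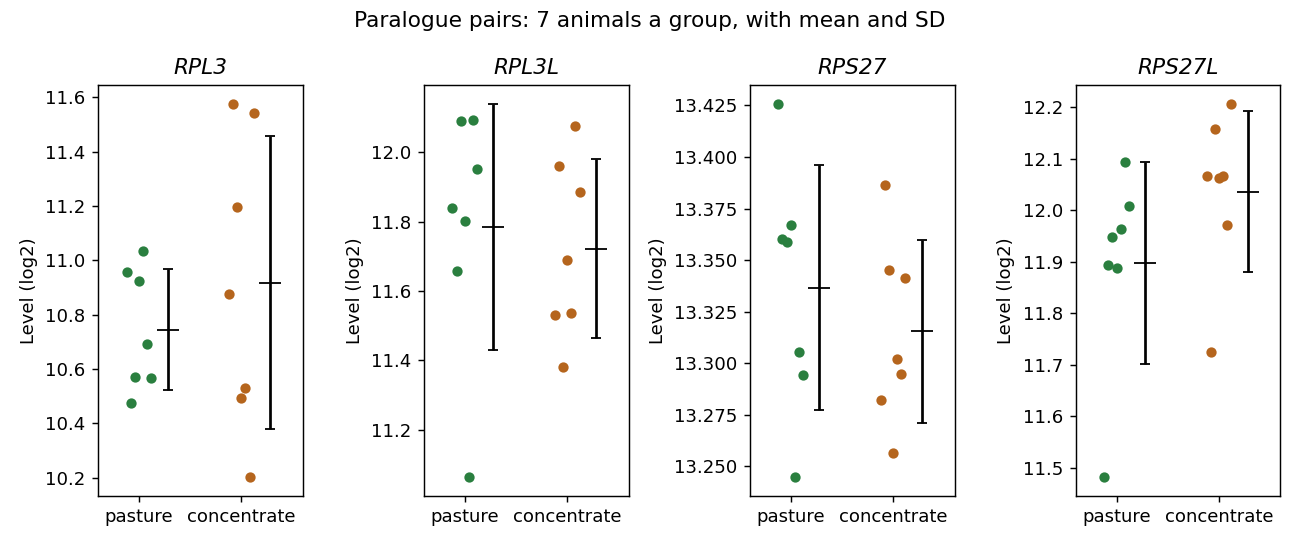
Level (log2) of *RPL3*, *RPL3L*, *RPS27* and *RPS27L* in each of 7 outdoor/pasture-fed and 7 indoor/concentrate-fed animals (points), with the group mean and SD (bars) beside them; each panel has its own axis, which does not start at 0. The groups overlap in all 4 panels, and the *RPL3L* value of 11.06 and the *RPS27L* value of 11.48 are the lowest of the outdoor/pasture-fed group.

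The members have 27 further probe sets, of which 12 varied, with 4 means higher and 8 lower at pasture. An unadjusted limma p under 0.05 was reached by 2 of these 12, against 19.9% of all varying probe sets. They were one of *RPL15P* (0.22 ± 0.096, limma adjusted p = 0.401) and one of *RPS12* (0.23 ± 0.098, adjusted p = 0.410). Both read much lower levels than the flat probe set that represents the gene. The other varying probe set of *RPL15P*, with a mean of 12.1, differed by -0.011. A second probe set of *RPS4Y1* was lower at pasture, at -0.21 ± 0.11 (adjusted p = 0.521). Their names are the annotation's and were kept, although *RPS4Y1* names a Y-linked gene and heifers have no Y chromosome. No member has the symbol *RPS4X* or *RPL15*. Which transcripts the *RPS4Y1* and *RPL15P* probe sets read was not tested.

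Within the groups, the ribosomal protein genes moved together from animal to animal. After removal of the group means, the 703 pairs of varying members had a median Pearson correlation of 0.46 over 14 arrays, against 0.015 for pairs of all varying probe sets. Of these pairs 86.1% were above 0 and 44.7% above 0.5, against 8.41% above 0.5 for all varying probe sets. The first principal component held 48.4% of the standardised variation and the second 13.5%. The shared variation crossed the subunits, as the median correlation was 0.42 within the large, 0.50 within the small and 0.47 between them. It was seen in each production system, with 0.48 among the 7 outdoor/pasture-fed and 0.52 among the 7 indoor/concentrate-fed animals. Within lists taken up below, the median was 0.45 for other TOP transcripts, 0.39 for mitochondrial ribosomal proteins, 0.37 for elongation factors and 0.36 for assembly factors. RNA polymerase I had -0.013 and mTORC1 -0.041. Among marker lists the median was 0.89 for adipocyte, 0.87 for fibroblast, 0.64 for slow fibre, 0.52 for leukocyte and 0.49 for endothelium. For satellite cell, fast fibre and skeletal muscle it was 0.34, 0.33 and -0.13. These correlations are descriptions, and the points share arrays and their normalisation.

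Genes of both subunits led this pattern. With the mean of the other members, 27 of the 38 genes had a correlation above 0.5, 9 lay between 0 and 0.5 and 2 were below 0. The highest were *RPL7A* (0.96), *RPL8* (0.90), *RPL10* (0.87) and *RPS16* (0.86). *RPS6* (0.80), *RPLP2* (0.68), *RPSA* (0.69), *RPL11* (0.69), *RPL5* (0.66) and *RPLP0* (0.59) followed the others as well. *RPL3L* (0.45) and *RPL3* (0.36) followed less closely, as did *RPS9* (0.34) and *RPS2* (0.31), the genes with the smallest p. *RPL39* (-0.015) and *RPS27L* (-0.25) did not share the pattern.

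**Figure D3:**
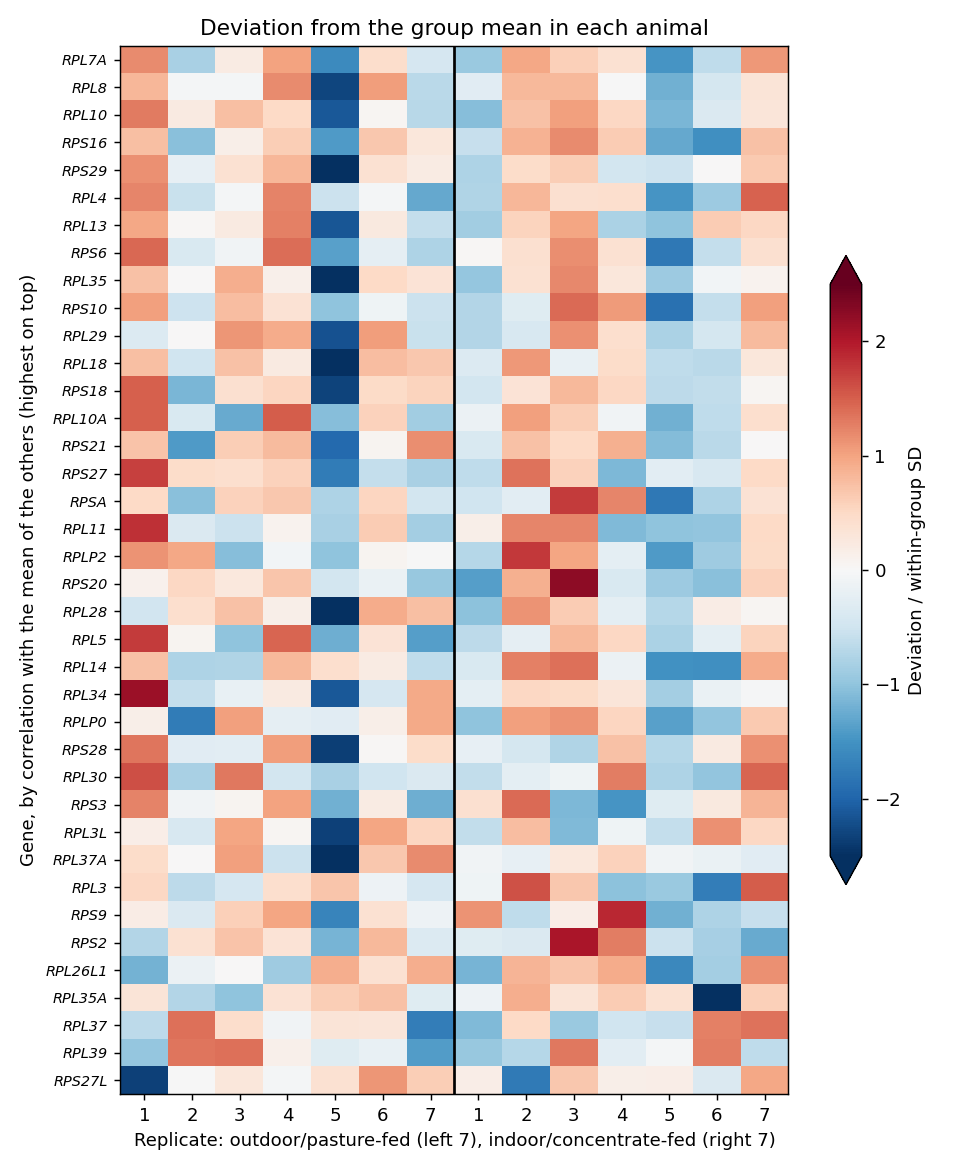
Deviation of each varying ribosomal protein gene (rows) from its group mean, in units of its within-group SD, in the 14 animals (columns; outdoor/pasture-fed left, indoor/concentrate-fed right), with genes ordered by their correlation with the mean of the others. Replicate 5 of each group is below the group mean for most genes, and *RPS27L* in the last row shows another pattern.

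Single arrays lay low or high for most of the genes. On outdoor/pasture-fed replicate 5 the 38 genes lay on average 0.114 below their own mean over all arrays, with 33 of them below it. On indoor/concentrate-fed replicate 5 they lay 0.080 below, with 36 below. The highest mean deviations were 0.077 on indoor/concentrate-fed replicate 7 and 0.069 on indoor/concentrate-fed replicate 2. The means of the groups were close, at -0.0085 at pasture and 0.0085 indoors. Over single arrays the mean deviation ranged from -0.114 to 0.037 at pasture and from -0.080 to 0.077 indoors.

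The arrays also hold poly-A spikes, bacterial transcripts added to the RNA. Whether their signal also depends on the RNA of the animal was not tested. The mean of their 24 probe sets was 10.2 on outdoor/pasture-fed replicate 5 and 9.65 on indoor/concentrate-fed replicate 5, the 2 highest of the 14 arrays, and 8.92 on indoor/concentrate-fed replicate 2, the lowest. On these 3 arrays it moved opposite to the ribosomal protein transcripts. With the spike mean removed the median correlation among the members was 0.23 and the first component held 34.8%. Without outdoor/pasture-fed replicate 5 the median correlation was 0.37, and without replicate 5 of both groups it was 0.32. Under each of these changes the median over pairs of members was above 0. The median over pairs of all varying probe sets was not computed under them. Fibroblast markers had their highest mean level on outdoor/pasture-fed replicate 5, at 12.1 against a median of 11.2 in that group, and their median correlation with the mean of the members was -0.43. Leukocyte markers were also highest there, at 7.40 against a median of 7.03, and satellite cell markers were the highest of that group, at 8.46 against a median of 8.09. The part of these markers in the shared variation was not tested.

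**Figure D4:**
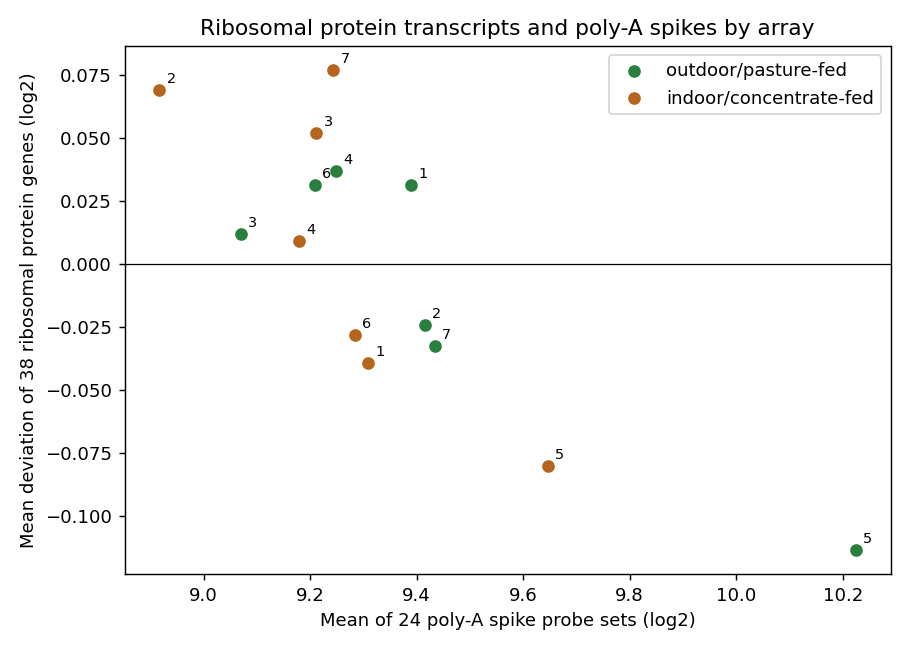
Mean deviation of the 38 varying ribosomal protein genes (log2) against the mean of the 24 poly-A spike probe sets (log2), 1 point per array, numbered by replicate and coloured by group. The array with the highest spike signal, outdoor/pasture-fed replicate 5 at 10.2, has the lowest ribosomal protein mean, -0.114.

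Outside the members, the named genes that followed their mean most closely after removal of the group means were *SNX11* (0.90), *SYNPO* (0.88), *TMEM161B* (0.87), *DNAJC5* (0.87) and *EEF1D* (0.87), over 14 arrays. *EEF1D* encodes a subunit of the exchange factor of elongation factor 1. The other 4 encode a sorting nexin, an actin-associated protein, a transmembrane protein and a chaperone of synaptic vesicles. With the spike mean removed these correlations ranged from 0.60 for *EEF1D* to 0.82 for *DNAJC5*. Of 5887 named varying probe sets, 49.4% had a correlation above 0 with the mean of the members. There were 665 above 0.5 and 533 below -0.5, the most negative being that of *LUC7L3* (-0.90).

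Other genes of translation were counted from lists of the pathway. Over the 7 varying elongation factors the median correlation with the mean of the members was 0.65, with values from -0.34 for *EEF1A1*, 0.18 for *EEF1E1* and 0.36 for *EEF2* to 0.87 for *EEF1D*. At pasture 3 were higher and 4 lower, and none passed the test. The muscle form *EEF1A2*, which replaces *EEF1A1* in mature fibres, was 11.9 to 12.4 (median 12.2) at pasture and 12.2 to 12.7 (median 12.5) indoors, a difference of -0.26 ± 0.099 (SE, n = 7 and 7; limma adjusted p = 0.339). *EEF1E1*, a factor of the aminoacyl-tRNA synthetase complex, differed by -0.15 (adjusted p = 0.416).

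Of 11 other TOP transcripts 7 varied, with 5 higher, 2 lower and a median difference of 0.0099, and none passed the test. The smallest p were those of *EIF2S3*, a subunit of the initiation factor that carries the initiator tRNA, with a log2 difference of 0.040 (limma adjusted p = 0.675), and of *EIF4B*, a cofactor of the initiation helicase, with a log2 difference of 0.080 (adjusted p = 0.745). Over the 7 genes the median correlation with the mean of the ribosomal proteins was 0.21. *RACK1*, a scaffold protein on the small subunit, differed by -0.0045, and *FAU*, whose product is processed to a ribosomal protein, was flat. The relatives left out of the members were both lower in mean at pasture without passing the adjusted threshold, *RPL7L1* at -0.10 ± 0.035 (adjusted p = 0.288) and *RPS19BP1* at -0.49 ± 0.17 (adjusted p = 0.293).

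The ribosome assembly factors, which process ribosomal RNA and fit the proteins onto it in the nucleolus, showed another distribution. Of 28 varying genes, 24 had a lower mean at pasture and 4 a higher one, with a median difference of -0.15 against -0.0077 over all varying probe sets. None passed the adjusted threshold. At an unadjusted limma p under 0.05 the count was 14 lower and 0 higher, of 28, against 19.9% over all varying probe sets in either direction. The list was assembled with earlier results of these data known, and no test of the list was made. The smallest p belonged to *IMP3*, a component of the small subunit processome, at 7.77 to 8.48 (median 8.26) at pasture and 8.35 to 8.92 (median 8.61) indoors. Its difference was -0.42 ± 0.11 (SE, n = 7 and 7; limma adjusted p = 0.218; exact permutation p = 0.0023). *EMG1*, a methyltransferase of 18S ribosomal RNA, was 9.31 to 9.50 (median 9.42) at pasture and 9.43 to 9.67 (median 9.56) indoors, a difference of -0.15 ± 0.041 (limma adjusted p = 0.233; exact permutation p = 0.0052). For both genes most outdoor/pasture-fed animals lay below most indoor/concentrate-fed ones and the ranges overlapped. Named after their values were seen, *GAR1* (-0.39) and *NHP2* (-0.34) of the H/ACA ribonucleoprotein, which guides pseudouridylation, and *FBL* (-0.24), the methyltransferase of the C/D box particle, were also among the lower means. Their particles were not lower throughout. Of the H/ACA particle *DKC1* differed by -0.045 and *NOP10* by 0.021, and *NOP56* of the C/D box particle was flat. *IMP4*, a processome component like *IMP3*, differed by 0.073. With the spike signal as a covariate 9 rather than 14 of the assembly factors were lower at an unadjusted p under 0.05. The share over all varying probe sets was not counted with that covariate. A further 14 of the 42 measured assembly factors were flat, *NCL* among them.

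In 4 varying genes of RNA polymerase I, which transcribes ribosomal RNA, 1 was higher and 3 lower, and none passed. *POLR1C*, shared with RNA polymerase III, differed by -0.19 (adjusted p = 0.388) and *POLR1H* by -0.11 (adjusted p = 0.687). Of 11 varying genes of mTORC1 and its translation targets, 3 were higher and 8 lower, with a median difference of -0.094, and none passed. This list mixes genes that promote the pathway with genes that restrain it, so these values give no direction of the pathway. *EIF4EBP1*, the repressor of cap-dependent initiation that mTORC1 inactivates by phosphorylation, was 8.11 to 8.85 (median 8.66) at pasture and 7.75 to 8.29 (median 7.996) indoors. Its difference was 0.57 ± 0.14 (SE, n = 7 and 7; limma adjusted p = 0.195; exact permutation p = 0.0047). Adjusted among the varying probe sets only, the limma p was 0.069. The study, which first filtered for informative probe sets, listed *EIF4EBP1* as higher at pasture on these arrays. It also reported the gene as different by QPCR in a larger set of animals. The filter of the study was not applied here, so the adjusted p values do not compare directly. The study also listed a larger log2 difference for this gene than the 0.57 found here. The reason was not tested. *EIF4E*, the cap-binding protein that EIF4EBP1 holds, was 11.67 to 11.79 at pasture and 11.78 to 12.01 indoors, a difference of -0.12 ± 0.034 (limma adjusted p = 0.241; exact permutation p = 0.0017).

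The mitochondrial ribosome is built from its own set of proteins. Of 59 varying mitochondrial ribosomal protein genes 30 were higher and 29 lower at pasture, with a median difference of 0.0039, and none passed the test. The smallest p were those of *MRPL50* (0.43, adjusted p = 0.247) and *MRPL39* (0.15, adjusted p = 0.264). Their median correlation with the mean of the cytosolic ribosomal proteins was 0.28, against 0.43 for the assembly factors. No marker of other cells in muscle passed the adjusted threshold. At an unadjusted limma p under 0.05, which 19.9% of all varying probe sets reached, 5 of 5 varying endothelial markers had a higher mean at pasture, among them *PECAM1* with a difference of 0.54 (adjusted p = 0.147). The mean level of the 6 endothelial markers was 8.45 to 8.80 at pasture and 8.03 to 8.46 indoors, with *VWF* flat at 5.75, and its part in the differences of the assembly factors was not tested. Of the fast fibre markers 4 of 5 reached that limit, 3 of them lower, and of the slow fibre markers 1 of 6. None of the varying adipocyte, leukocyte, fibroblast, red blood cell and satellite cell markers did.

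**Figure D5:**
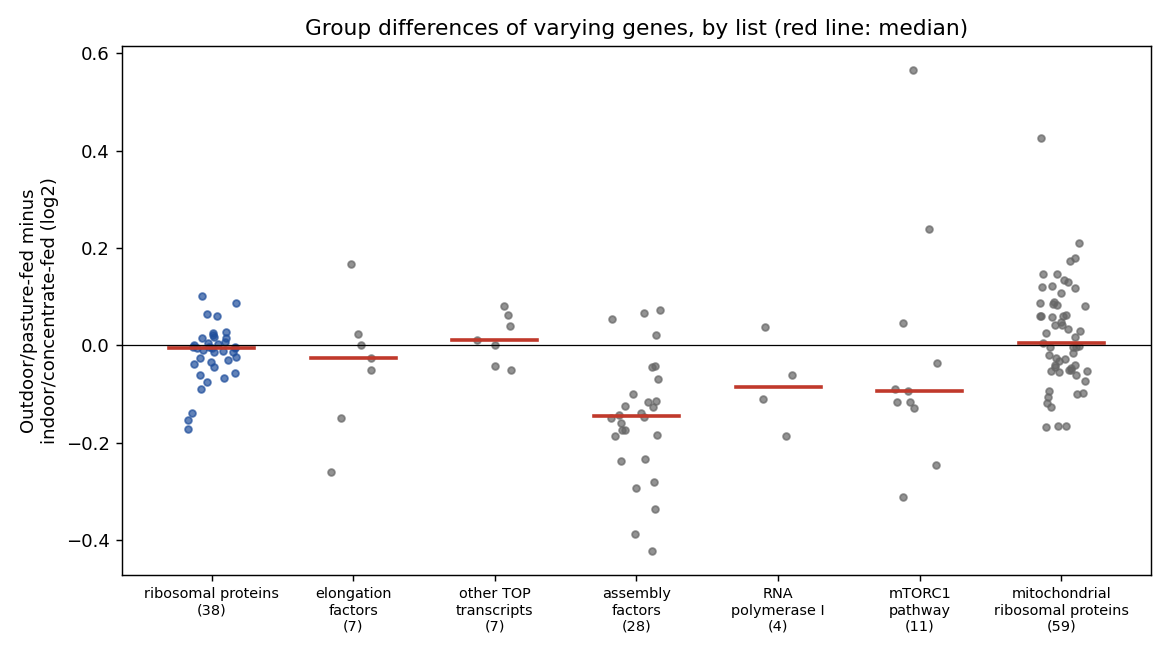
Difference between the group means (log2, pasture minus concentrate) of the varying genes of 7 gene lists, 1 point per gene, with the number of genes in brackets and the median as a red line. The ribosomal proteins lie around a median of -0.0059, and the assembly factors around -0.15.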

How the data were processed

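Expression was measured in LD muscle of 14 heifers, 7 from each production system, on 1 array each. Probe intensities had been quantile normalised and summarised by the authors with FARMS, a factor analysis method. The deposited values are log2 expression values. Why some probe sets have nearly one value on all arrays was not tested, since this needs probe-level data. The authors' filter on informative probe sets was not applied to the deposited table. A flat value does not show an unchanged transcript.

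The 112 control probe sets were left out. For the group differences limma 3.58.1 (lmFit, eBayes) was run in R 4.3.3 without covariates, with Benjamini-Hochberg adjustment over all 24016 probe sets and a threshold of 0.05. Probe sets with an SD above 0.01 were called varying. Exact permutation tests were 2-sided over 3432 assignments of the arrays, with a smallest p of 0.000583. The limma fit was tested on simulated data, and the other calculations were not. No library depth exists for arrays, and their number limits the precision. The labels name no batch.

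Gene symbols come from the platform annotation, in which 13292 probe sets have 1 symbol, 86 several and 10638 none, and all 67 gene identifiers and symbols matched the reference annotation. Proteins without a member probe set, among them *RPLP1* and *RPL6*, were not analysed here.

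The members and lists were chosen with earlier results of these data known. Named were the members with the 5 smallest p in each direction (taken among the varying ones, since flat *RPS19*, *RPS24*, *RPS12*, *RPS15A*, *RPL38* and *RPL12* would otherwise enter), the 5 highest and lowest means, the 5 largest and 3 smallest SDs, paralogues, *RPLP0*, *RPLP2*, *RPSA*, *RPS6*, *RPL5* and *RPL11*, the 2 smallest p among the varying genes of each pathway list, and the 5 most similar genes. As alternatives, a replicate block, trended or robust priors, SD filters, renewed quantile normalisation, median centring, array weights, the poly-A spike mean as a covariate, other choices of probe set and leaving out arrays were tried.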

Additional observations from a re-analysis of the deposited data

Results flagged for a closer look

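Each of the 38 varying ribosomal protein genes and 3 measures of the arrays were examined in both groups of 7 animals. Of these 82 groups 9 held a value far from the others by Dixon's test, where chance flags about 1 in 20 groups. Outdoor/pasture-fed replicate 5 gave 7 of the values. There *RPL18* was 13.09, *RPL28* 11.43, *RPL35* 13.49, *RPL37A* 13.6, *RPL3L* 11.06 and *RPS29* 11.76, each the lowest of its group, while the mean of the poly-A spikes was 10.22, the highest. In indoor/concentrate-fed replicate 6 *RPL35A* was 13.14, with the next value of that group at 13.29. In outdoor/pasture-fed replicate 1 *RPS27L* was 11.48, with the next value at 11.89.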

How the results depend on the processing

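No ribosomal protein gene passed the threshold under any of the 27 alternative settings run for this count, and the lowest adjusted p of a named member was 0.261. The count of members higher at pasture, 14, became 24 with array weights and 23 with the poly-A spike covariate. Among members with an SD above 0.1 it was 4, in a smaller set, so this count does not compare with the 14. With 1 array left out it ranged from 8 (without indoor/concentrate-fed replicate 5) to 19 (without outdoor/pasture-fed replicate 5). Members with an unadjusted p under 0.05 numbered 2 with the mean of all probe sets, 2 with the probe set of the largest SD, 1 with the spike covariate, and 0 to 1 with 1 array left out. The number of varying members changes with the choice of probe set. For members and assembly factors alike, the share of all varying probe sets under that limit was counted only for the main fit. The median difference was -0.056 among members with an SD above 0.1, and from -0.018 to 0.0011 with 1 array left out. It was also above 0 with array weights (0.0086) and the spike covariate (0.0052). The median correlation was 0.59 after centring on array medians, 0.23 with the spike covariate, 0.25 among members with an SD above 0.1, 0.32 without replicate 5 of both groups (a choice made after seeing the data), and 0.37 to 0.49 with 1 array left out. Assembly factors lower at an unadjusted p under 0.05 numbered 9 with the spike covariate and 10 to 17 with 1 array left out. The difference of *RPS6* turned to 0.011 with array weights and 0.0057 with the spike covariate, that of *RPL34* to -0.0027 after renewed quantile normalisation, and that of *RPSA* ranged from -0.0035 to 0.051 with 1 array left out. The causes were not tested. Correlations between animals with the same replicate number ranged from -0.18 to 0.24, and no pairing by number was assumed. Replicate 5 of both groups lay low for most members. Whether arrays of the same number were processed together was not tested. With the replicate number as a block, 0 members passed, 2 had an unadjusted p under 0.05 and the median correlation was 0.34.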
